A study of Mus musculus with 6 samples.

Results

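The disulfide isomerases of the endoplasmic reticulum (ER) were examined here as 8 genes chosen by name: P4hb, Pdia2, Pdia3, Pdia4, Pdia5, Pdia6, Erp44 and Txndc5. All 8 had a row among the 23337 genes of the count table, and all 8 passed the filter on low counts, which 14587 genes passed. The RNA came from sorted cardiomyocytes of wild-type mice, isolated at 4 weeks of age after an adeno-associated virus (AAV) was injected on postnatal day 1. There were 3 groups of 2 libraries: AAV-ATF6N, which by its usual meaning carries the nuclear, amino-terminal fragment of the transcription factor ATF6; AAV-XBP1S, which carries the spliced, active form of the transcription factor XBP1; and AAV-GFP, the control virus that carries green fluorescent protein. No source used here gives the promoter in the vectors, the virus dose, or the number or sex of the mice behind a library. The cells are called ATF6N cells, XBP1S cells and GFP cells below. The question is which disulfide isomerase genes each factor changes.

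Disulfide isomerases are thioredoxin-fold proteins that form, break and rearrange the disulfide bonds of proteins as these fold in the ER. Their active cysteines are oxidised in turn by ER oxidases of the ERO1 family. XBP1 and ATF6 belong to the unfolded protein response, by which a loaded ER raises the supply of its own chaperones and folding enzymes. P4hb is the founding isomerase and also a subunit of collagen prolyl 4-hydroxylase, Pdia3 works on glycoproteins held by calnexin and calreticulin, Pdia4 and Pdia6 are further luminal isomerases, and Pdia2 is best known from the pancreas. Erp44 retains oxidases and unassembled proteins on their way to the Golgi, Txndc5 is a luminal isomerase that is studied in fibroblasts, and Pdia5 is a less studied member that has been linked to the activation of ATF6.

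Values are CPM, the read counts scaled to a common library size after TMM adjustment, unless FPKM is named, which divides CPM by the gene's exon length in kilobases. The libraries held 67702482 to 112049342 counts, so that 3 counts were worth between 0.0305 and 0.0459 CPM. A gene passed the test at an adjusted p of at most 0.05 in edgeR's quasi-likelihood test, adjusted by Benjamini-Hochberg over all 14587 genes. With 2 libraries a group, an exact permutation test cannot go below 0.333 two-sided and was not used. The labels do not say that the libraries came from separate animals, so p-values measure the spread between these samples only. The counts of Atf6 and Xbp1 cover the whole gene and do not tell RNA of the vector from RNA of the cell's own gene. Atf6 stood at 159.8 ± 2.98 CPM in ATF6N cells, 94.0 ± 24.0 CPM in XBP1S cells and 57.7 ± 18.1 CPM in GFP cells (SD, n = 2 each), with a log2 fold change of 1.47 in ATF6N cells against GFP cells (SE 0.29, edgeR adjusted p = 0.126). Xbp1 stood at 148.2 ± 4.76 CPM in ATF6N cells, 163.2 ± 3.94 CPM in XBP1S cells and 107 ± 12.2 CPM in GFP cells, at 0.61 in XBP1S cells against GFP cells (SE 0.19, edgeR adjusted p = 0.307). The 8 cardiomyocyte markers summed to 103906 and 103825 CPM in ATF6N cells, 67290 and 75497 CPM in XBP1S cells and 86386 and 79393 CPM in GFP cells, and no library lacked any of them. They did not move as 1: against GFP cells, 4 of 8 had a log2 fold change above 0 in ATF6N cells (median 0.0042). In XBP1S cells 2 of 8 did (median -0.17). The mean of Myh6 was 65818 CPM in ATF6N cells against 32056 CPM in GFP cells, while that of Tnni3 was 7011 against 13095 CPM. Xist and the Y-linked Eif2s3y moved with the groups: Eif2s3y had 3595 and 2824 counts in ATF6N cells, 0 in both XBP1S libraries and 1629 and 979 in GFP cells, while Xist stood at 0.197 and 0.0919 CPM in ATF6N cells, 43.1 and 20.2 CPM in XBP1S cells and 24.6 and 7.88 CPM in GFP cells. Both GFP libraries held reads of both genes. The content of sex-specific RNA thus differed in all 3 comparisons. Sex and virus cannot be told apart between ATF6N cells and XBP1S cells, and the part of sex in the comparisons with GFP cells was not tested. GFP replicate 1 held the highest share of counts on the ribosomal RNA precursor Rn45s, 0.337% against 0.0319% to 0.130% in the other 5 libraries.

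Pdia4 and Pdia2 were the members that passed edgeR's test as higher in ATF6N cells than in GFP cells, and Pdia2 was the one in XBP1S cells. Pdia3, Pdia6 and P4hb were also higher in both ATF6N libraries than in any other library, by less, and did not pass. In XBP1S cells all 8 members lay above both GFP libraries, as 19.1% of all genes tested did. Pdia4 was among the lower members in control cells and came level with the abundant ones in ATF6N cells. Pdia2 had no read in control cells. Under the same test, 51 of 14587 genes (0.35%) were higher in ATF6N cells than in GFP cells and 26 (0.178%) were higher in XBP1S cells than in GFP cells, against 2 and 1 of the 8 members. No member passed as lower in either comparison, where 24 and 20 genes did (0.165% and 0.137%). With shares so low, the lack of a lower member says little about the members. At an unadjusted edgeR p under 0.05, 5 and 3 members were past, all of them higher, against 1963 and 1689 of all 14587 genes in either direction. DESeq2 called 5 and 2 members higher, against 342 and 284 of the same 14587 genes. It called no member lower, against 231 and 192 genes. In bulk RNA of a sorted population, fewer cells with a transcript and less of it per cell cannot be told apart.

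Pdia4 (mm10 chromosome 6, 47796141 to 47813512, minus strand; 2481 exon bases) had 507.3 and 497.8 CPM in the ATF6N libraries, 70.1 and 89.5 CPM in XBP1S cells and 30.2 and 46.5 CPM in GFP cells. The 3 groups did not overlap, and the ATF6N libraries were the highest by a wide margin. The mean in ATF6N cells was 13.1-fold that in GFP cells (log2 fold change 3.71, SE 0.29, edgeR adjusted p = 0.00716) and 6.30-fold that in XBP1S cells (2.66, SE 0.28, edgeR adjusted p = 0.0337). In XBP1S cells against GFP cells it was 2.08-fold (1.06, SE 0.26) and did not pass (edgeR adjusted p = 0.232), although it did with DESeq2 (0.0237), which called 2 members, Pdia2 and Pdia4, and 1.78% of all genes higher there. With 1 library fewer the log2 fold change in ATF6N cells against GFP cells ran from 3.43 to 4.06, and the edgeR call was lost without either ATF6N library (adjusted p = 0.0835 without replicate 1 and 0.0717 without replicate 2) or either XBP1S library (0.0561 and 0.0547), and in a fit of the 4 libraries compared alone (0.0552). The call against XBP1S cells was lost without any 1 of these 4 libraries (0.256 to 0.382).

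Pdia2 (chromosome 17, 26195999 to 26199087, minus strand; 1721 exon bases) had 2776 and 2157 counts in ATF6N cells, 280 and 258 in XBP1S cells and 0 in both GFP libraries. These were 34.2 and 33.0 CPM in ATF6N cells, 3.01 and 3.15 CPM in XBP1S cells and 0 CPM in GFP cells. The replicates of each group lay close to each other, and the groups stood far apart. A floor of 3 counts over the GFP group is 0.0177 CPM, so Pdia2 was at least 1901-fold higher in ATF6N cells than in GFP cells and at least 174-fold higher in XBP1S cells than in GFP cells (edgeR adjusted p = 0.0013 and 0.00355). ATF6N cells exceeded XBP1S cells 10.9-fold (log2 fold change 3.45, SE 0.24, edgeR adjusted p = 0.0154). Of the 6477 genes without a count in either GFP library, Pdia2 had the highest mean CPM both in ATF6N cells and in XBP1S cells. The call in ATF6N cells against GFP cells passed in all 12 alternatives (edgeR and DESeq2 adjusted p at most 0.0286). That in XBP1S cells against GFP cells failed without XBP1S replicate 1 (edgeR adjusted p = 0.089) or replicate 2 (0.0955), and that between the factors failed without any 1 ATF6N or XBP1S library (0.18 to 0.382).

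Reads of a neighbouring gene could reach Pdia2, since the libraries do not mark strand. Axin1 ends 188 bases away on the other strand, and Arhgdig lies 96 bases upstream on the same strand. Axin1 had 36.9 and 39.2 CPM in ATF6N cells, 29.3 and 29.2 CPM in XBP1S cells and 26.5 and 40.8 CPM in GFP cells. Arhgdig had 1.21 and 1.56 CPM in ATF6N cells, 1.20 and 0.782 CPM in XBP1S cells and 1.02 and 0.505 CPM in GFP cells. Its mean ran in the same order of groups as that of Pdia2, at 1.82-fold in ATF6N cells over GFP cells, and did not pass (edgeR adjusted p = 0.440); the part of its reads in the Pdia2 counts was not tested. Neither exon set overlaps Pdia2 in the count table. Of the other members, Pdia6 shares 50 bases at its end with Atp6v1c2, which had at most 22 counts in a library. Pdia4 shares 77 bases with Mir704 on the same strand, and the part of this overlap in the Pdia4 counts was not tested.

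**Figure D1:**
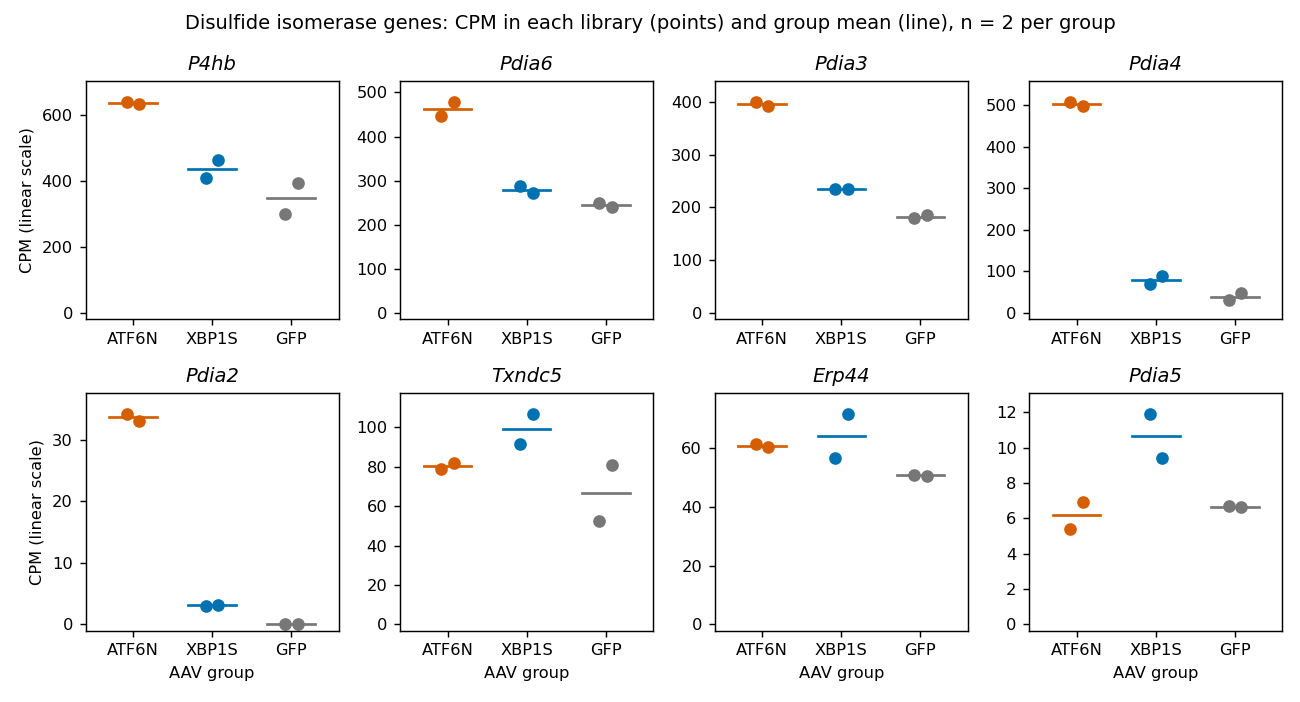
CPM of each member on a linear axis from 0, in its own panel, with 1 point per library and a line at the mean of the 2 libraries of a group. In Pdia4 and Pdia2 the ATF6N points (497.8 and 507.3 CPM, 33.0 and 34.2 CPM) stand far above both other groups. In P4hb, Pdia6 and Pdia3 they stand above them by less. In Txndc5, Erp44 and Pdia5 the XBP1S mean is the highest, but in Erp44 the ATF6N points lie between the XBP1S points.

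The start regions of these genes are shown because XBP1 and ATF6 are known to act through short promoter elements. The ER stress response element (ERSE) is CCAAT, any 9 bases, then CCACG; ERSE-II is ATTGG, any 1 base, then CCACG; and the unfolded protein response element (UPRE) was searched as TGACGTGG. RefSeq promoters of GRCm38.p6, 250 bases before to 50 after a start, were found for all 8 members, 11 in total, since Erp44 has 2 and Txndc5 has 3. Both strands were searched. The full ERSE was in the Pdia6 promoter and in 39 of all 32851 promoters (0.119%), ERSE-II was in none of the 11 and in 12 of all (0.0365%), and the UPRE letters were in 1 of the 3 Txndc5 promoters and in 222 of all (0.676%). With 1 of the 10 fixed ERSE bases allowed to differ, a setting tried after the exact search, 6 of the 11 promoters held a match, those of Pdia2, Pdia3, Pdia4, Pdia6 and both of Erp44, against 494 of all (1.5%). The 2 Erp44 promoters overlap and hold the same stretch, which is counted for both. The promoters of P4hb, Pdia5 and Txndc5 held none. The RefSeq start of the Txndc5 promoter with the UPRE letters lies 546 bases from the start of that gene in the count table. For P4hb the distance is 317 bases. The CCACG letters alone were in 32.8% of all promoters. The stretches are given 5′ to 3′ in the direction of the element, with the bases that match in capitals and the spacer and the differing base in lower case.
Pdia6: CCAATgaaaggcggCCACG
Pdia4: CCAATcacgggctgCCACt
Pdia3: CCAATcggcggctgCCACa
Pdia2: CCAAgcagcaacagCCACG
Erp44: CCAATcccgaagagCCcCG

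The Pdia6 stretch lies 98 to 80 bases before the RefSeq start, on the strand of the gene. The Pdia4 stretch lies 108 to 90 bases before the start and on the opposite strand, and the Pdia3 stretch 29 to 11 bases before it on the strand of the gene. In Pdia2 the stretch spans the start itself, from 10 bases before to 8 after, on the opposite strand, and the base that differs is in the CCAAT end. In Pdia3, Pdia4 and Erp44 the base that differs is in the CCACG end. The whole promoters of the 2 members that passed edgeR's test are printed next, on the minus strand of GRCm38.p6 in the direction of transcription. Because both stretches lie on the opposite strand, they read there as the reverse complement, with their outer 5 bases on each side in capitals, the differing base included. The RefSeq start of both is the start in the count table. A match describes these letters only and is no measure of binding.
Pdia2, chr17:26199038-26199337: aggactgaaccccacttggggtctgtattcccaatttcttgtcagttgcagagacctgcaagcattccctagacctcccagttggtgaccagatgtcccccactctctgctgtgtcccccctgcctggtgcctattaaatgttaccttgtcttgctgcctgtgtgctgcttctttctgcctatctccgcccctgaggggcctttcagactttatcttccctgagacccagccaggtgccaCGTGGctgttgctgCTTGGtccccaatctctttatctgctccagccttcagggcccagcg
Pdia4, chr6:47813463-47813762: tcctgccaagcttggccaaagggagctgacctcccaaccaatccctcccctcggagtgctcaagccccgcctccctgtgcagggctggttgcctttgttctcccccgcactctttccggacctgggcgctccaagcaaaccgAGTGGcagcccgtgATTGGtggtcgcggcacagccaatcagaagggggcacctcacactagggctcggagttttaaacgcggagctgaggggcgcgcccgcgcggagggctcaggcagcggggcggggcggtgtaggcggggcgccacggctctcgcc

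P4hb, Pdia6 and Pdia3, the abundant isomerases of control cells, were all higher in both ATF6N libraries than in any other library, at 1.83- to 2.17-fold the mean of GFP cells, and did not pass edgeR's test. Pdia3 (chromosome 2, 121413902 to 121438686) had 400.1 and 392.4 CPM in ATF6N cells, 234.3 and 234.9 CPM in XBP1S cells and 180.6 and 185.1 CPM in GFP cells. Set against GFP cells, the log2 difference came to 1.12 in ATF6N cells (SE 0.18, edgeR adjusted p = 0.0632) and to 0.36 in XBP1S cells (SE 0.17, 0.492). Replicates differed by far less than the groups did. With DESeq2 Pdia3 passed in ATF6N cells against GFP cells (3.5e-05), as it did in the authors' deposited table (0.00659).

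Pdia6 (chromosome 12, 17266595 to 17284770) had 447 and 478 CPM in ATF6N cells, 286.8 and 272.9 CPM in XBP1S cells and 249.5 and 241.1 CPM in GFP cells. The ATF6N mean was 1.89-fold that of GFP cells (log2 0.92, SE 0.18, edgeR adjusted p = 0.119), and XBP1S cells against GFP cells gave a log2 difference of 0.19 (SE 0.18, 0.701). P4hb (chromosome 11, 120560304 to 120572936) had 638 and 633 CPM in ATF6N cells, 410 and 462 CPM in XBP1S cells and 299.6 and 393.8 CPM in GFP cells, where the 2 control libraries lay far apart. Its log2 fold changes over GFP cells were 0.87 with ATF6N cells (SE 0.21, edgeR adjusted p = 0.193) and 0.33 with XBP1S cells (SE 0.21, 0.593). In ATF6N cells against GFP cells, DESeq2 called both higher (adjusted p = 0.00241 for Pdia6 and 0.0226 for P4hb), and with it 5 of the 8 members were higher, against 342 of 15253 genes (2.24%). In that comparison Pdia2, Pdia4 and Pdia3, 3 of the members, had an adjusted p of at most 0.05 in the authors' deposited table, against 416 of 15366 genes (2.71%), with Pdia6 at 0.0512 and P4hb at 0.0928. The authors' deposited table for XBP1S cells against GFP cells had Pdia2 alone, against 209 of 15941 genes (1.31%).

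Txndc5, Erp44 and Pdia5 had their highest mean in XBP1S cells, not in ATF6N cells, and none of them passed in any of the 3 comparisons. The share of all genes with their highest mean in XBP1S cells was not counted. The order of means is thus not read as a trait of these members. Pdia5 (chromosome 16, 35397312 to 35490873) had 5.42 and 6.95 CPM in ATF6N cells, 11.9 and 9.44 CPM in XBP1S cells and 6.68 and 6.64 CPM in GFP cells. ATF6N cells overlapped GFP cells, and XBP1S cells lay above both. ATF6N cells against GFP cells gave a log2 fold change of -0.11 and XBP1S cells against GFP cells one of 0.68 (SE 0.25 each), and ATF6N cells against XBP1S cells gave -0.79 (SE 0.25, edgeR adjusted p = 0.245). Txndc5 (chromosome 13, 38500275 to 38528460) had 78.7 and 81.6 CPM in ATF6N cells, 91.6 and 106.8 CPM in XBP1S cells and 52.4 and 80.8 CPM in GFP cells, where the spread between the control libraries was close to the differences between groups. The log2 fold changes over GFP cells were 0.27 for ATF6N cells and 0.58 for XBP1S cells, with an SE of 0.25 each. Erp44 (chromosome 4, 48193331 to 48279589) varied least, with 61.2 and 60.1 CPM in ATF6N cells, 56.6 and 71.6 CPM in XBP1S cells and 50.9 and 50.3 CPM in GFP cells. On the log2 scale it was 0.26 higher in ATF6N cells and 0.34 higher in XBP1S cells than in GFP cells (SE 0.20 each, edgeR adjusted p = 0.504 and 0.569). The ATF6N libraries of Erp44 lay between its XBP1S libraries. ATF6N cells against XBP1S cells gave a log2 fold change of -0.08 for Erp44 (SE 0.20, edgeR adjusted p = 0.90).

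In XBP1S cells all 8 members lay above both GFP libraries in both libraries, which 19.1% of all genes tested did, and the median log2 fold change of the members was 0.47 against -0.01 over all genes. It is the same with Pdia2 at its bound, since the median lies between lower members. In ATF6N cells 6 of 8 did, against 27.9% of all genes, with a median of 0.89 against -0.02. Between ATF6N cells and XBP1S cells, 5 members lay above in both libraries and 2 below, Pdia5 and Txndc5, against 30.1% and 26.8% of all genes, and the median of the members was 0.63 against -0.01. The 2 below are close to the share of all genes and are not read as a trait of the members. Neither passed (edgeR adjusted p = 0.245 for Pdia5 and 0.667 for Txndc5). Between ATF6N cells and XBP1S cells, Pdia4 and Pdia2 passed and were higher in ATF6N cells, where 25 of 14587 genes (0.171%) were higher and 8 (0.0548%), none of them a member, were lower. Pdia3, Pdia6 and P4hb had log2 fold changes of 0.76, 0.72 and 0.54 there (SE 0.18, 0.18 and 0.21; edgeR adjusted p = 0.132, 0.15 and 0.334). DESeq2 called Pdia3 (0.0158) and Pdia6 (0.0269) higher as well in ATF6N cells against XBP1S cells, where it called 305 of 14901 genes higher (2.05%). Both comparisons against GFP cells use the same 2 control libraries.

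**Figure D2:**
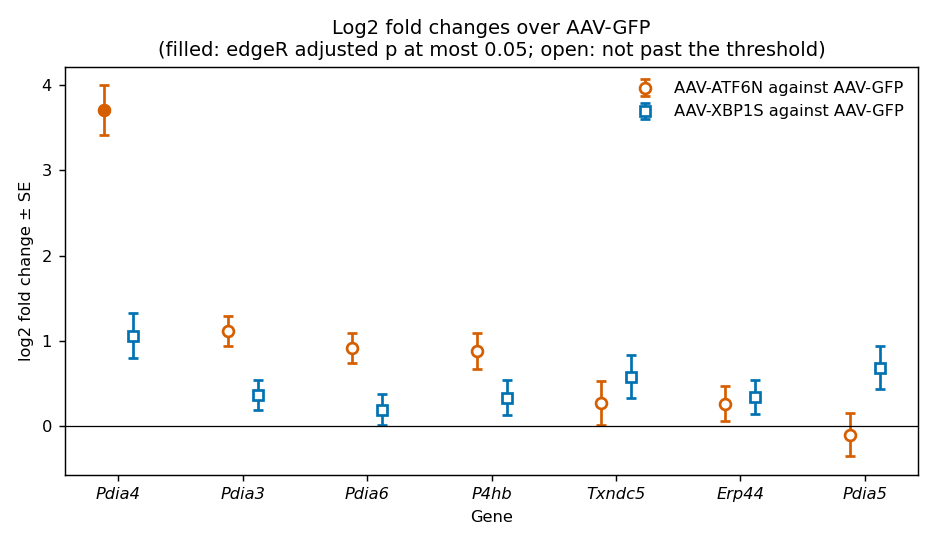
Log2 fold change over GFP cells (vertical axis, bars ± 1 SE of the edgeR fit) for 7 members, with ATF6N cells as circles and XBP1S cells as squares; filled symbols passed the test. Pdia4 in ATF6N cells, at 3.71, is the filled point, and the XBP1S square lies above the ATF6N circle in Txndc5, Erp44 and Pdia5. In Txndc5 and Erp44 the bars of the square and the circle overlap. Pdia2 is left out, since a group without counts gives no measured fold.

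Set on a scale per length, the family sum was 893.8 and 900.4 FPKM in ATF6N cells, 478.1 and 510.2 FPKM in XBP1S cells and 358.9 and 411 FPKM in GFP cells. The groups did not overlap, and the ATF6N libraries lay highest. Pdia4 made up 22.9% and 22.3% of that sum in ATF6N cells, 5.91% and 7.07% in XBP1S cells and 3.39% and 4.56% in GFP cells. The share of P4hb was 28.1% and 27.7% in ATF6N cells, 33.8% and 35.6% in XBP1S cells and 32.9% and 37.8% in GFP cells, so it remained the largest part in every library. Pdia2 reached 2.22% and 2.13% in ATF6N cells and 0.366% and 0.359% in XBP1S cells.

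Per length, Pdia4 in ATF6N cells (204.5 and 200.6 FPKM) stood beside Pdia6 (210.4 and 225) and above Pdia3 (151.4 and 148.5), and Pdia2 (19.9 and 19.2) stood just under Erp44 (23.1 and 22.7). In XBP1S cells, Pdia4 (28.3 and 36.1 FPKM) overlapped Txndc5 (35.0 and 40.8), and Pdia2 (1.75 and 1.83) was the lowest member. The order of levels in GFP cells was P4hb (118.0 and 155.1 FPKM), Pdia6 (117.4 and 113.5), Pdia3 (68.3 and 70.0), Txndc5 (20.0 and 30.9), Erp44 (19.2 and 19.0), Pdia4 (12.2 and 18.8), Pdia5 (3.69 and 3.67) and Pdia2 at 0. In GFP cells some pairs differed by less than the gap between the 2 libraries of the more variable gene of the pair. These were P4hb and Pdia6, Txndc5 and Erp44, Erp44 and Pdia4, and Txndc5 and Pdia4.

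**Figure D3:**
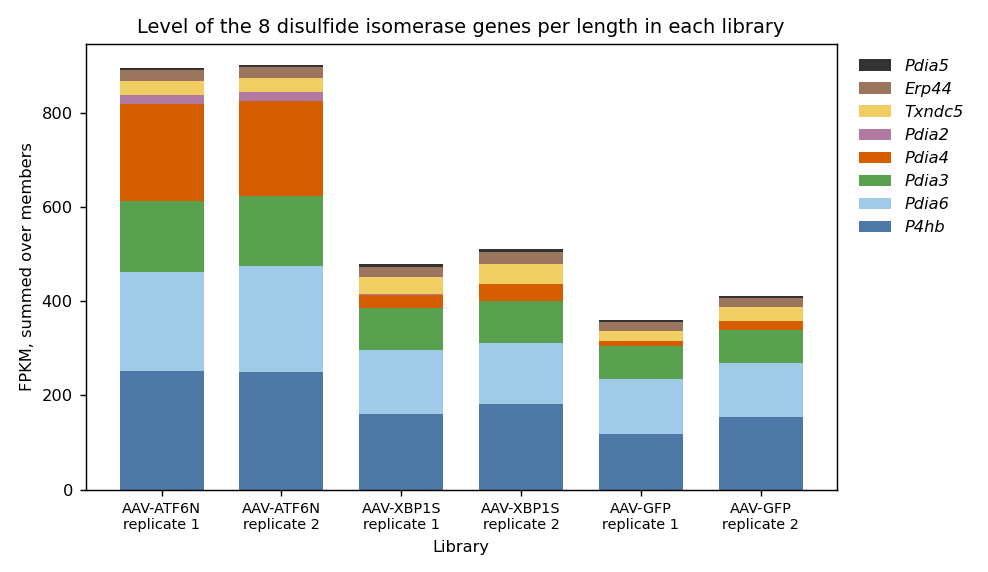
FPKM of the 8 members stacked for each library, on an axis from 0, with the ATF6N libraries at the left and GFP cells at the right. The ATF6N bars reach 893.8 and 900.4 FPKM against 358.9 to 510.2 in the other 4 libraries, and the Pdia4 segment takes 22.3% and 22.9% of them.

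Over all 6 libraries the log2 CPM of Pdia4 followed that of Pdia3 (Pearson's r = 0.993), Pdia6 (0.976) and P4hb (0.975), and had r = 0.296 with Txndc5 and -0.357 with Pdia5. These are descriptions over 6 points that share the 3 groups. Of 9533 other genes with a mean of at least 5 CPM, those most like Pdia4 were Hyou1 (r = 0.998), an ER chaperone gene, Egr1 (0.994), an immediate early transcription factor gene, and Thbs1 (0.992), which encodes the secreted thrombospondin 1. Hyou1 had 56.0 and 57.9 CPM in ATF6N cells, 13.6 and 17.8 CPM in XBP1S cells and 7.81 and 11.9 CPM in GFP cells. Those most like Pdia2 were Dapp1 (r = 0.996), an adaptor protein gene, Atf3 (0.994), a stress-induced transcription factor gene, and Derl3 (0.993), a gene of ER-associated degradation. Derl3 had 135.5 and 142.5 CPM in ATF6N cells, 14.7 and 10.2 CPM in XBP1S cells and 0.244 and 0.449 CPM in GFP cells. The other genes changed far less than Pdia2: Dapp1 had 17.1 and 16.7 CPM in ATF6N cells and 7.9 and 7.7 CPM in GFP cells. Atf3 had 79.8 and 81.8 CPM in ATF6N cells and 30.5 and 33.3 CPM in GFP cells. An r does not measure the size of a change, and that of Pdia2 depends on the prior count of 2 given to its zeros.

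In the other genes of oxidative folding edgeR's test made no call in either comparison against GFP cells, while DESeq2 called Ero1lb, Uggt1 and Calr higher in ATF6N cells. Over all genes, 1963 of 14587 in ATF6N cells and 1689 in XBP1S cells had an unadjusted edgeR p under 0.05. Without GFP replicate 2, the next 3 lists gained calls in ATF6N cells, and the first of them also in XBP1S cells. The number of calls over all genes rose in both comparisons as well, so these gains are not read as a trait of the lists. Of 14 other thioredoxin-fold proteins of the ER, 10 passed the filter on low counts, and their median log2 fold change was 0.62 in ATF6N cells and 0.14 in XBP1S cells, against -0.02 and -0.01 over all genes. In ATF6N cells, 3 had an unadjusted edgeR p under 0.05 and 0 passed with edgeR or DESeq2: Txndc11 (0.90, SE 0.30), Tmx1 (0.77, SE 0.27), a membrane-bound isomerase, and Txndc15 (-0.67, SE 0.24). In XBP1S cells, 0 had an unadjusted p under 0.05 and 0 passed with DESeq2. There Txndc15 had -0.54 (SE 0.24) and Dnajc10, an ER reductase, 0.57 (SE 0.38), close to its 0.59 (SE 0.38) in ATF6N cells.

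Of 13 ER oxidases, peroxidases and related redox genes, all passed the filter. The median log2 fold change was -0.23 in ATF6N cells and 0.13 in XBP1S cells, and 0 passed with edgeR in either, with 1 at an unadjusted p under 0.05 in each. In ATF6N cells that was Ero1lb, the ERO1 oxidase best known from the pancreas, at 7.10 against 3.09 CPM in GFP cells (1.20, SE 0.27, edgeR adjusted p = 0.177), which DESeq2 called higher (0.0157). In XBP1S cells it was Selm, an ER selenoprotein gene (0.95, SE 0.40), and DESeq2 called 0. Ero1l, the widely expressed oxidase, had 0.41 (SE 0.33) in ATF6N cells and 0.38 (SE 0.33) in XBP1S cells.

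Among 12 partners of the members, 10 passed the filter and 0 passed with edgeR in either comparison, with 2 in ATF6N cells and 1 in XBP1S cells at an unadjusted p under 0.05. Those 2 were Uggt1, the folding sensor that returns glycoproteins to the calnexin cycle (1.53, SE 0.23, edgeR adjusted p = 0.0529), and Calr, the calreticulin gene (1.05, SE 0.18, 0.0908), and DESeq2 called both higher (2.18e-06 and 0.000368). In XBP1S cells it was Uggt1 (0.64, SE 0.22), and DESeq2 called 0. Calreticulin works with Pdia3, which had 1.12 in ATF6N cells. P4ha1, an alpha subunit that pairs with P4hb in collagen prolyl 4-hydroxylase, had 0.22 (SE 0.19) in ATF6N cells and -0.22 (SE 0.19) in XBP1S cells, and P4ha2 -0.34 (SE 0.18) in XBP1S cells.

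The 11 major ER chaperones and cofactors, which fold proteins beside the isomerases, had a median log2 fold change of 1.38 in ATF6N cells and 0.22 in XBP1S cells, and 5 and 1 of them rose, calls that were lost without any 1 ATF6N or XBP1S library. In ATF6N cells these were Sdf2l1 (3.39, SE 0.29), Hyou1 (2.53, SE 0.29), Creld2 (2.30, SE 0.25), Hsp90b1 (1.65, SE 0.21) and Hspa5 (1.37, SE 0.19); their edgeR adjusted p ran from 0.00989 to 0.0462. In XBP1S cells it was Sdf2l1 (2.14, SE 0.28, edgeR adjusted p = 0.0447). The log2 fold change of Pdia4 in ATF6N cells, 3.71 (SE 0.29), was above those of all 11, but close to the 3.39 of Sdf2l1. That of Pdia3, 1.12 (SE 0.18), was below those of the 5 that passed edgeR's test, but close to the 1.37 of Hspa5. These differences between genes were not tested. DESeq2 called 8 of the 11 higher in ATF6N cells and 2 in XBP1S cells, Sdf2l1 and Dnajb9 (0.00542). Dnajb9, Manf and Dnajc3 did not pass edgeR's test in either comparison against GFP cells. They had 0.80 (SE 0.23), 2.26 (SE 0.39) and 1.38 (SE 0.22) in ATF6N cells, and 1.11 (SE 0.23), 1.13 (SE 0.37) and 0.40 (SE 0.21) in XBP1S cells.

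**Figure D4:**
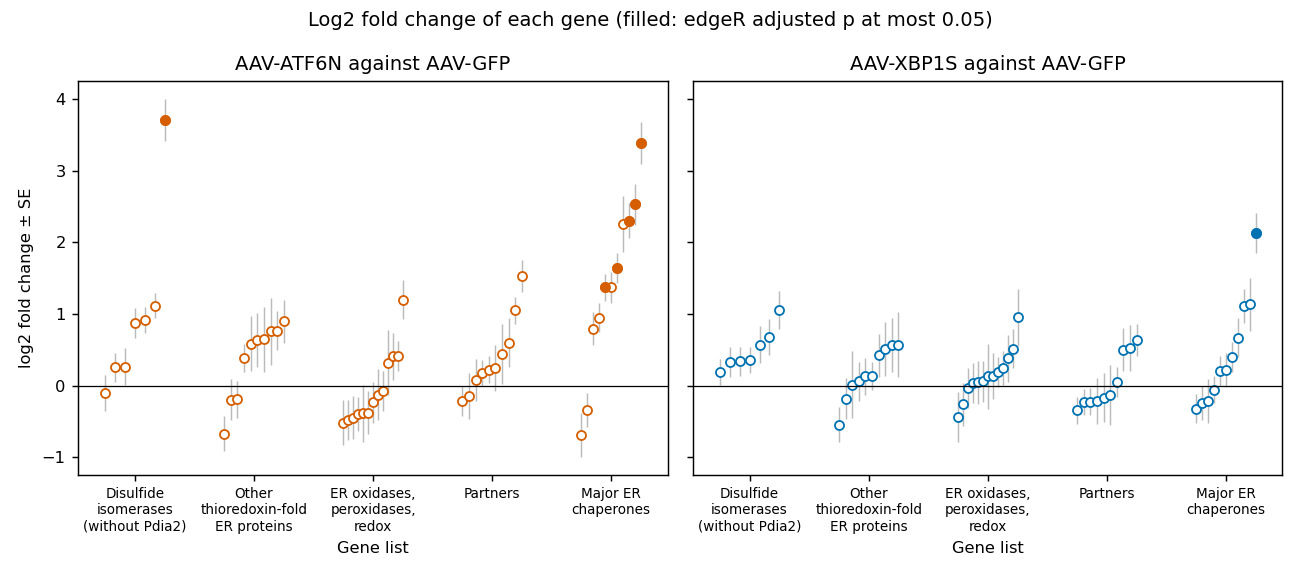
Log2 fold change of each tested gene (points, bars ± 1 SE) in 5 lists, for ATF6N cells against GFP cells at the left and XBP1S cells against GFP cells at the right; filled points passed the test, and Pdia2 is left out. In ATF6N cells the filled points are Pdia4 and 5 of the 11 major chaperones, in XBP1S cells 1 chaperone, Sdf2l1, and the lists of redox genes and of partners hold none in either panel.

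Markers of other cell types moved between the same libraries. The 8 fibroblast markers, a cell type rich in collagen-folding enzymes, summed to 795.3 to 830.4 CPM in ATF6N cells, 813 to 967.2 CPM in XBP1S cells and 468.2 to 605.4 CPM in GFP cells, and 6 of 8 in ATF6N cells and 8 of 8 in XBP1S cells had a log2 fold change above 0. The 8 endothelial markers summed to 672.4 to 722.5 CPM in ATF6N cells, 1486 to 1683 CPM in XBP1S cells and 1102 to 1266 CPM in GFP cells. The 7 macrophage and leukocyte markers stood at 49.2 to 49.5, 49.2 to 57.6 and 35.9 to 36.6 CPM in that order of groups, and the 6 of smooth muscle and pericytes at 954.2 to 965.8, 805.3 to 851.1 and 723.5 to 787.6 CPM. No marker of these 4 lists was at 0 in any library, and none passed edgeR's test. DESeq2 called Emcn, Egfl7 and Fabp4 of endothelium lower (adjusted p = 0.00102, 0.0073 and 0.0146) and Col1a1 of fibroblasts higher (0.027) in ATF6N cells against GFP cells, and Lum of fibroblasts higher (0.00942) in XBP1S cells against GFP cells. In ATF6N cells against XBP1S cells, 0 of 8 endothelial markers had a log2 fold change above 0 (median -1.16). Among them DESeq2 called Emcn, Egfl7, Cdh5 and Fabp4 lower there (adjusted p = 4.8e-08, 2.96e-05, 8.98e-05 and 0.0111). Of the fibroblast markers 3 of 8 were above 0 there, and DESeq2 called Dcn lower (0.0276). Their part in the results on P4hb, Txndc5 and the other moderate differences was not tested. The 4 plasma cell markers, a type rich in disulfide isomerases, summed to 6.52 to 6.73 CPM in ATF6N cells, 7.22 to 7.93 CPM in XBP1S cells and 7.58 to 9.11 CPM in GFP cells. Most of that sum was Sdc1, and Tnfrsf17 was at 0 in 5 of 6 libraries. Mzb1, at 1.40 CPM in ATF6N cells, 0.377 CPM in XBP1S cells and 0.428 CPM in GFP cells, was higher in both ATF6N libraries than in the other 4 and did not pass (1.71 in ATF6N cells against GFP cells, SE 0.56, edgeR adjusted p = 0.311). The part of these markers in the results on Pdia4 and Pdia2 was not tested.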

How the data were processed

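The authors deposited read counts per gene for 6 libraries. The submitters' processing notes name STAR, featureCounts and mm10, with no versions. Per the labels, cDNA was made with the SMART-Seq v4 kit, or SMART-Seq2 by a description, and libraries with Nextera XT, which do not mark strand. Exon lengths came from the same table. Of the authors' deposited comparisons with AAV-GFP, the log2 fold changes and p-values were read. The scores the authors deposited there are the standard error and the Wald statistic, per the file headers, and are not printed. The processing notes also name DESeq2.

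Groups came from the titles. Genes were kept by filterByExpr with a count minimum of 10. After TMM, one model with group as its term was fitted to the 6 libraries by edgeR 4.0.16 in R 4.3.3 (glmQLFit, 3 residual and 3.73 prior degrees of freedom, common dispersion 0.0921), and tests were two-sided. A standard error is the log2 fold change over the square root of F. The fit was tested on simulated data. Log2 CPM for likeness used a prior count of 2. Alternatives were DESeq2 1.42.0, RLE size factors, no filter, robust estimation, a replicate block, the 4 libraries compared, and leaving out each library. Among columns of counts, 0 were left out. Replicates differed beyond counting noise, with a chi-square per gene over 11628 genes of 12.5 in AAV-ATF6N, 324 in AAV-XBP1S and 841 in AAV-GFP, where noise gives 1. Floors cover counting error only. Members and lists were chosen with earlier results of these data known. The named genes were the 8 members, Xbp1 and Atf6, the genes of a list past the threshold or otherwise up to 4 of smallest p, and the 3 genes of highest Pearson's r with Pdia2 and Pdia4. Sels was matched as H47, Jchain as Igj and Mzb1 as 2010001M09Rik through RefSeq synonyms.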

Additional observations from a re-analysis of the deposited data

How the results depend on the processing

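Of 288 member values under the alternatives, 252 kept their direction and their side of the threshold, 18 passed only under the alternative, 15 passed only in the fit reported, and 3 changed sign, none of them called: Pdia5 in AAV-ATF6N against AAV-GFP ran from -0.30 to 0.063 over the fits that leave out 1 library, the sign turning without AAV-ATF6N replicate 1. Txndc5 there ran from -0.012 to 0.62, turning without AAV-GFP replicate 1, and Erp44 in AAV-ATF6N against AAV-XBP1S from -0.28 to 0.10, turning without AAV-XBP1S replicate 2. The members past the threshold numbered 2 in AAV-ATF6N against AAV-GFP, 1 in AAV-XBP1S against AAV-GFP and 2 in AAV-ATF6N against AAV-XBP1S. In the same order they numbered 5, 2 and 4 with DESeq2. With only the 4 libraries compared they were 1, 1 and 4. Leaving out 1 library gave 1 to 5, 0 to 2 and 0 to 4, with the most without AAV-GFP replicate 2 (in the last without either AAV-GFP library) and the fewest without either AAV-ATF6N or AAV-XBP1S library in the first and last and without either AAV-XBP1S library in the second. A group left with 1 library is assumed there to vary like the others.

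All genes past the threshold numbered 75, 46 and 33 in that order, 573, 477 and 803 with DESeq2, 348, 233 and 458 without a filter, 8, 13 and 666 with only the 4 libraries compared, and 4 to 3052, 2 to 242 and 1 to 669 leaving out 1 library, the 3052 and 242 without AAV-GFP replicate 2 and the 669 without AAV-GFP replicate 1. With the replicate number as a block they were 237, 165 and 356, with 3, 1 and 2 members, Pdia3 being added in AAV-ATF6N against AAV-GFP (edgeR adjusted p = 0.0368). Same-numbered libraries deviated together between AAV-XBP1S and AAV-GFP (r = 0.38) but not with AAV-ATF6N (-0.04 and -0.05), and no label says that the numbers pair the libraries. RLE size factors and robust estimation left the member counts as they were. With 2 libraries a group, moderate differences such as those of Pdia3, Pdia6 and P4hb in AAV-ATF6N against AAV-GFP passed or failed with the choice of test.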
